A study of Mus musculus with 8 samples.

Results

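The antioxidant enzymes described here are 10 genes: the superoxide dismutases Sod1, Sod2 and Sod3, the catalase gene Cat, the glutathione peroxidases Gpx1, Gpx3 and Gpx4, and the inducible genes Nqo1, Hmox1 and Gclc. Their probes were found through the transcript accession that the array files give for each spot, which led to 12 of the 55681 probes on the array: 2 each for Cat and Hmox1 and 1 for each other gene. All 12 were well above background on all 8 arrays. The arrays measured RNA from hand-picked pancreatic islets of male C57BL/6 mice on a standard diet. Islets came from 3 mice called β-CB1R-/- (Cnr1 flox/flox, carrying the MIP-Cre/ERT transgene) and from 4 β-CB1R+/+ control mice (Cnr1 flox/flox without the transgene). Per the study's methods, both genotypes received tamoxifen. Tamoxifen switches on the MIP-Cre/ERT recombinase, which the mouse insulin promoter drives in beta cells, so that Cnr1, the gene of the cannabinoid 1 receptor (CB1R), is cut there. The transgene and the loss of the receptor therefore go together in these groups and cannot be told apart. Age is not given for these samples in the sources used here. Per sample, the labels state a CB1 genotype without naming a tissue, and their protocol text is about mice lacking the receptor in the whole body. The beta cell knockout is named in the title of the series and in the study. One β-CB1R-/- mouse, replicate 2, was hybridised to 2 repeat arrays, which were averaged.

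Superoxide, formed when electrons leak from the respiratory chain, is turned into hydrogen peroxide by superoxide dismutases in the cytosol (SOD1), the mitochondrial matrix (SOD2) and the extracellular space (SOD3). Catalase in peroxisomes and the glutathione peroxidases then remove the peroxide, the latter at the expense of glutathione, whose synthesis begins with the enzyme that GCLC and GCLM form. NQO1 reduces quinones and HMOX1 breaks down haem, and together with GCLC they are standard targets of the transcription factor NRF2. Beta cells are known for low levels of catalase and glutathione peroxidase compared with liver, and the study measured reactive oxygen species in islets of these genotypes. The question put to the arrays here is which of these genes differed between the genotypes.

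The stretches of 120 bases before the transcription start of 3 members are shown, those of Gpx1 and Gpx4 because their values separated the genotypes and that of Sod1 because it was the only one of the 7 promoters searched that held the NRF2 motif. They are RefSeq sequences of GRCm38.p6, whereas the array files name an older build (mm9), and they are printed in the direction of transcription. Capitals mark matches on either strand to TGACNNNGC, the core of the antioxidant response element that NRF2 binds, or to GGGCGG, the GC box of SP1 family factors.
Sod1 (chr16:90220642-90220761, plus strand): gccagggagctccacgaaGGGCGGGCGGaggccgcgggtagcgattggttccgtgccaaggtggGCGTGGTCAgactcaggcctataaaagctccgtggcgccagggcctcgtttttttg
Gpx1 (chr9:108338960-108339079, plus strand): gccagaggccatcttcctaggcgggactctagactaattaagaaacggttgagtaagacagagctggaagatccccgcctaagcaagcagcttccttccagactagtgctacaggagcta
Gpx4 (chr10:80053445-80053564, plus strand): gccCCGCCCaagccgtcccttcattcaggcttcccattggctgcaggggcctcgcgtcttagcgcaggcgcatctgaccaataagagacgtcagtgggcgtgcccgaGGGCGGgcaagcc

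Promoters were listed for 7 of the 10 members; Sod3, Hmox1 and Gclc were not matched. Over the 250 bases before the start, TGACNNNGC was found in 1 of the 7, Sod1, where it lies on the minus strand and reads GCGTGGTCA as printed. It occurred in 10.2% of the 32851 promoters of the same length. GGGCGG occurred in 32.7% of them; overlapping matches were counted separately. Sod1 and Sod2 had 4 matches each, Nqo1 had 2, Cat and Gpx3 had 1 each, and Gpx1 had none. Of the 4 starts listed for Gpx4, 3 lie within 446 bases and had 2, 2 and 1 matches; the stretch shown precedes the first of these. The windows of the first 2 of these starts overlap, and their 2 matches are the same sites. These matches describe letters in these windows only.

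Each value is the log2 intensity of a probe minus the 75th percentile of its array. The brightness of a probe depends on the probe as well as on its transcript. The 2 probes for Cat averaged 1.89 and −2.57 in the same β-CB1R+/+ islets, so no order of abundance between genes was drawn from these values. The number of probes well above background ran from 33612 to 37480 per array in β-CB1R+/+ mice and from 33308 to 39989 in β-CB1R-/- mice. The number of arrays limits the precision. Cnr1 itself, the targeted gene, measured −1.11, −0.77, −0.53 and −0.015 in β-CB1R+/+ islets and −2.30, −3.13 and −2.28 in β-CB1R-/- islets, a log2 difference of −1.97 (limma, adjusted p = 0.193, unadjusted p = 0.000335). Its probe was above background on 7 of 8 arrays, the exception being a β-CB1R-/- array. All 9 beta cell markers were above background on all arrays, and their mean was 6.26 to 6.67 in β-CB1R+/+ mice and 6.04 to 6.46 in β-CB1R-/- mice, with 1 of the 9 higher in β-CB1R-/- islets. Of 6 markers of other endocrine cells 1 was higher, with means of 4.71 to 5 and 4.18 to 4.82. The 13 markers of acinar cells, the enzyme-secreting cells around islets, were also above background on all arrays, with means of 8.56 to 9.78 and 8.80 to 9.97. The genotypes sat at different ends of 1 slide, and an effect of position cannot be told apart from one of genotype.

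Gpx1 and Gpx4, the peroxidases for hydrogen peroxide and for lipid hydroperoxides in membranes, were the 2 members whose 3 β-CB1R-/- values all lay above the 4 β-CB1R+/+ values, by 1.37-fold and 1.67-fold on average. No member passed the threshold of 0.05 on limma's p-value adjusted over all 39160 probes compared (adjusted p = 0.999 for each of the 12 probes). The 2 probes of Gpx1 and Gpx4 had an unadjusted p under 0.05, by limma and by the methods' t-test alike. Among all probes compared, 43 passed the adjusted threshold, which is 0.11%, and 3.59% had an unadjusted p under 0.05. A difference with every β-CB1R-/- mouse above every β-CB1R+/+ mouse occurred in 2.16% of all probes, and the reverse in 1.96%. On the brighter probe of each gene, 9 of the 10 members had a higher mean in β-CB1R-/- islets and 1, Nqo1, a lower one, with a median log2 difference of 0.30. Over all 16955 annotated genes compared, 7511 had a higher mean and the median was −0.039. The members were chosen with earlier results of these data known, so these counts describe them and were not tested.

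**Figure D1:**
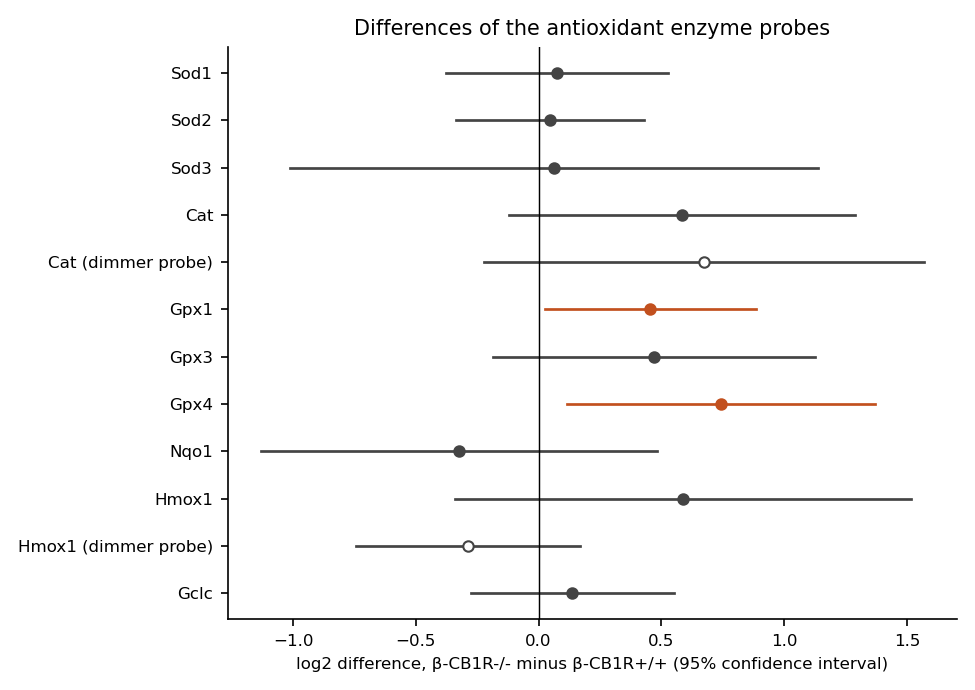
Log2 difference between β-CB1R-/- (3 mice) and β-CB1R+/+ (4 mice) islets for each antioxidant enzyme probe, with the 95% confidence interval from limma; open circles are the dimmer of 2 probes of a gene, and orange marks probes whose groups did not overlap. Only the intervals of Gpx1 (0.024 to 0.89) and Gpx4 (0.12 to 1.37) lie above 0, before any adjustment for the number of probes.

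Among the superoxide dismutases, Sod1 measured 6.29, 6.45, 6.28 and 6.21 in β-CB1R+/+ replicates 1 to 4 and 6.10, 6.58 and 6.47 in β-CB1R-/- replicates 1 to 3. The groups overlapped, since the lowest and the highest value both came from β-CB1R-/- mice. Its log2 difference was 0.075 with a standard error of 0.20 (95% confidence interval −0.38 to 0.53; exact permutation p = 0.629), and its sign turned to −0.004 with quantile normalization. Sod2, the mitochondrial enzyme, measured 5.002, 4.999, 4.914 and 4.992 in β-CB1R+/+ islets and 5.08, 5.005 and 4.984 in β-CB1R-/- islets. These 7 values span less than 0.2 log2 units. The difference of 0.046 had a standard error of 0.17 and a 95% confidence interval of −0.34 to 0.43 (exact permutation p = 0.371), so that a change in either direction larger than 1.35-fold lay outside the interval; with a normexp background the difference was −0.001. Sod3, the extracellular enzyme, measured −1.56, −1.65, −1.62 and 0.19 in β-CB1R+/+ islets and −1.27, −0.77 and −1.25 in β-CB1R-/- islets. One mouse, β-CB1R+/+ replicate 4, stood apart from all the others. The log2 difference was 0.063 with a standard error of 0.47 (95% confidence interval −1.01 to 1.14; exact permutation p = 1). Without that mouse it was 0.51, and without any 1 of the other β-CB1R+/+ mice it was −0.071 to −0.10.

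**Figure D2:**
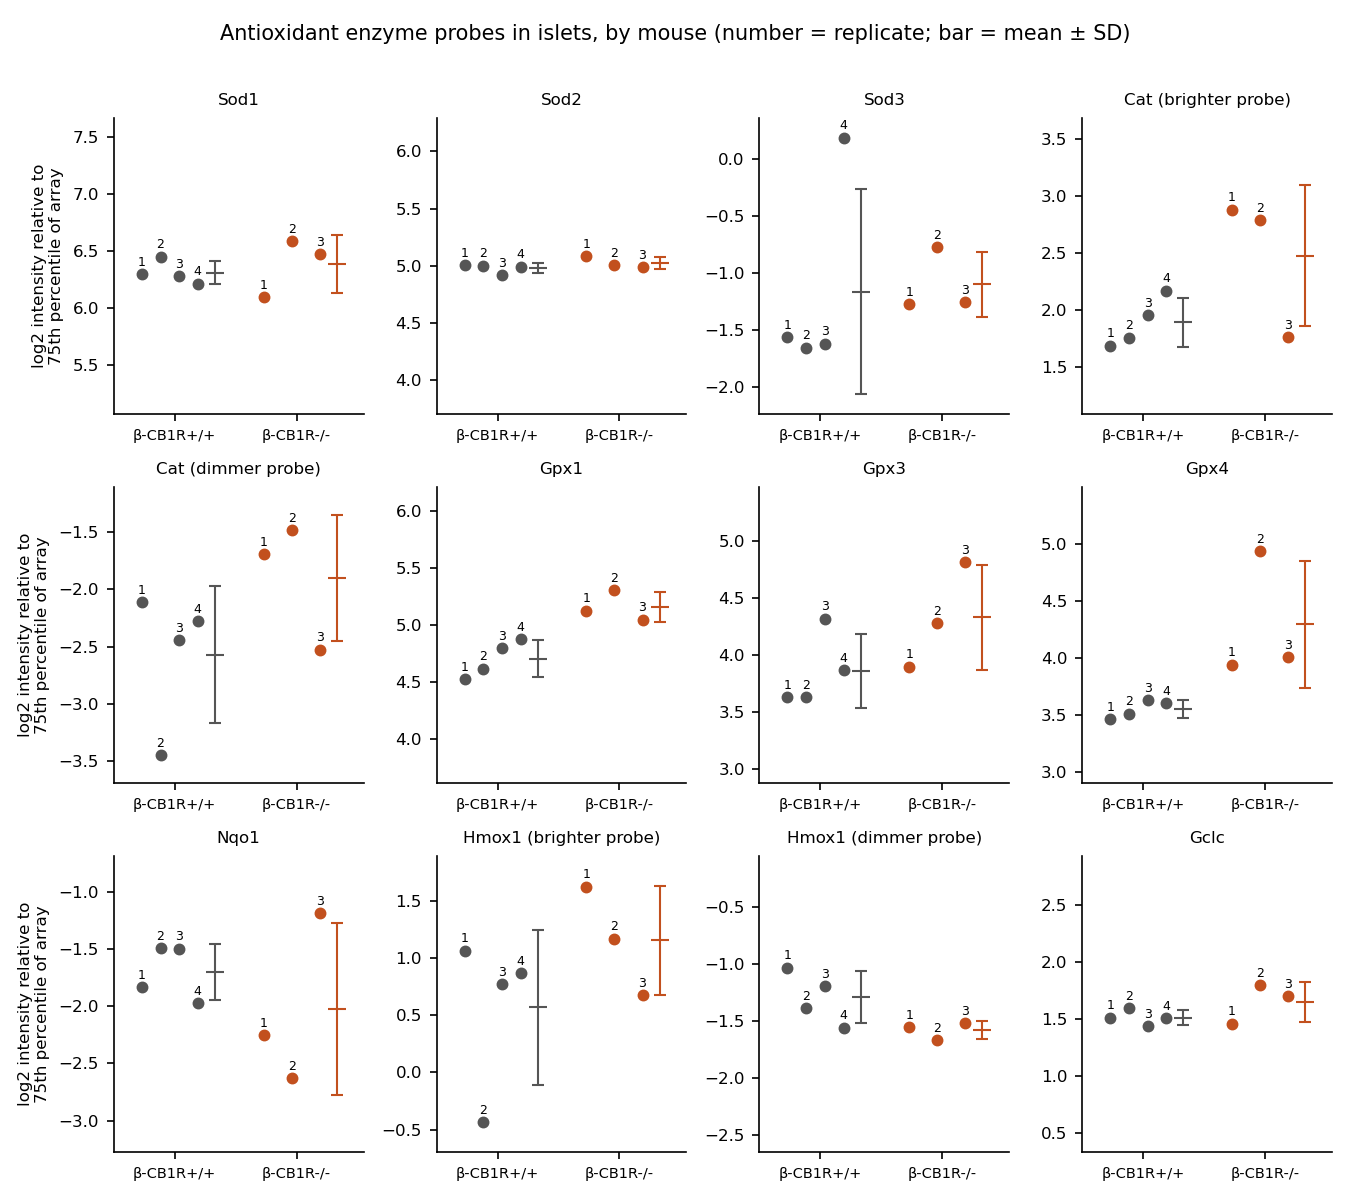
Log2 intensity of each antioxidant enzyme probe relative to the 75th percentile of the array, by mouse; each panel spans 2.6 log2 units, points are mice with their replicate number, and bars give the mean ± SD of each genotype (n = 4 and 3). The groups do not overlap for Gpx1 and Gpx4, and 1 β-CB1R+/+ mouse stands apart for Sod3.

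Cat, the peroxisomal enzyme that splits hydrogen peroxide, measured 1.69, 1.76, 1.95 and 2.17 on its brighter probe in β-CB1R+/+ islets and 2.88, 2.79 and 1.76 in β-CB1R-/- islets. Thus 2 β-CB1R-/- mice were above every control, while replicate 3 lay among the controls. The dimmer probe measured −2.11, −3.45, −2.45 and −2.28 against −1.69, −1.48 and −2.53, with the same 2 β-CB1R-/- mice on top. The log2 differences were 0.58 with a standard error of 0.31 on the brighter probe (95% confidence interval −0.12 to 1.29; exact permutation p = 0.171) and 0.67 with a standard error of 0.39 on the dimmer one (−0.22 to 1.57; exact permutation p = 0.257). Neither probe reached an unadjusted p under 0.05. Single mice moved these differences both ways. The brighter probe differed by 0.94 without β-CB1R-/- replicate 3 (limma, unadjusted p = 0.00343, adjusted p = 0.503) and by 0.38 without β-CB1R-/- replicate 1 (limma, unadjusted p = 0.282, adjusted p = 1). The dimmer probe differed by 0.99 without β-CB1R-/- replicate 3, by 0.38 without β-CB1R+/+ replicate 2 and by 0.25 with a normexp background.

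Gpx1, the cytosolic and mitochondrial glutathione peroxidase, measured 4.52, 4.61, 4.79 and 4.88 in β-CB1R+/+ islets (mean 4.70 ± 0.16, SD, n = 4) and 5.12, 5.30 and 5.04 in β-CB1R-/- islets (5.16 ± 0.13, n = 3). Every β-CB1R-/- mouse lay above every control. The log2 difference was 0.46 with a standard error of 0.19, a 1.37-fold higher mean (95% confidence interval 1.02 to 1.85; limma, unadjusted p = 0.041, adjusted p = 0.999). An exact permutation test gave p = 0.0286, the smallest that 4 against 3 mice allow. Leaving out each mouse in turn gave 0.38 to 0.51, and limma's unadjusted p stayed under 0.05 only without β-CB1R-/- replicate 3 (unadjusted p = 0.0387, adjusted p = 0.507) or β-CB1R+/+ replicate 4 (unadjusted p = 0.0456, adjusted p = 0.97).

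Gpx4, which reduces lipid hydroperoxides, measured 3.46, 3.51, 3.63 and 3.60 in β-CB1R+/+ islets (mean 3.55 ± 0.077, SD, n = 4) and 3.94, 4.94 and 4.01 in β-CB1R-/- islets (4.29 ± 0.56, n = 3). The groups did not overlap, and replicate 2 of the β-CB1R-/- mice was far above the rest on both of its repeat arrays (4.94 and 4.93). The log2 difference was 0.74 with a standard error of 0.27, a 1.67-fold higher mean (95% confidence interval 1.08 to 2.58; limma, unadjusted p = 0.0256, adjusted p = 0.999; exact permutation p = 0.0286). Without replicate 2 of the β-CB1R-/- mice it was 0.42 (limma, unadjusted p = 0.0698, adjusted p = 1). When arrays were centred on their median in place of the 75th percentile, the log2 differences of Gpx1 and Gpx4 were 0.45 and 0.74, but their standard errors rose to 0.29 and 0.34, and no member had separate groups or an unadjusted p under 0.05 (limma, unadjusted p = 0.156 and unadjusted p = 0.0542, adjusted p = 1 for both). RefSeq lists pseudogenes of Gpx4 in the mouse, and whether the probe would also bind their transcripts was not tested.

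Gpx3, the glutathione peroxidase secreted into plasma, measured 3.63, 3.63, 4.32 and 3.87 in β-CB1R+/+ islets and 3.90, 4.28 and 4.81 in β-CB1R-/- islets. The groups overlapped through β-CB1R+/+ replicate 3, and the log2 difference of 0.47 had a standard error of 0.28 (95% confidence interval −0.19 to 1.13; exact permutation p = 0.171). It was 0.23 without β-CB1R-/- replicate 3 and 0.69 without β-CB1R-/- replicate 1, the extremes with each mouse left out.

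Of the NRF2 targets, Nqo1 was the only member with a lower mean in β-CB1R-/- islets on its brighter or sole probe. It measured −1.84, −1.49, −1.50 and −1.97 in β-CB1R+/+ islets and −2.25, −2.63 and −1.19 in β-CB1R-/- islets. The 3 β-CB1R-/- values held both the lowest values and the highest of all 7, and the log2 difference was −0.33 with a standard error of 0.35 (95% confidence interval −1.13 to 0.48; exact permutation p = 0.457). Leaving out β-CB1R-/- replicate 2 brought it to −0.021, and leaving out replicate 3 to −0.74 (limma, unadjusted p = 0.0177, adjusted p = 0.503).

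Hmox1, haem oxygenase 1, gave differences of opposite sign on its 2 probes. The brighter probe measured 1.07, −0.44, 0.78 and 0.87 in β-CB1R+/+ islets and 1.63, 1.17 and 0.68 in β-CB1R-/- islets, a log2 difference of 0.59 with a standard error of 0.40 (95% confidence interval −0.34 to 1.52; exact permutation p = 0.314). Without β-CB1R+/+ replicate 2 the difference was 0.25, and without β-CB1R-/- replicate 1 it was 0.35. The dimmer probe measured −1.03, −1.39, −1.19 and −1.56 against −1.55, −1.67 and −1.52, a difference of −0.29 with a standard error of 0.20 (−0.74 to 0.17; exact permutation p = 0.143). The mice also ranked differently on these probes: β-CB1R-/- replicate 1 was the highest of the 7 on the brighter probe and among the lowest on the dimmer one. No direction for Hmox1 was drawn.

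Gclc, the catalytic subunit of the first enzyme of glutathione synthesis, measured 1.51, 1.60, 1.44 and 1.51 in β-CB1R+/+ islets and 1.46, 1.80 and 1.70 in β-CB1R-/- islets. The highest values came from 2 β-CB1R-/- mice and the groups overlapped. The log2 difference was 0.14 with a standard error of 0.18 (95% confidence interval −0.27 to 0.55; exact permutation p = 0.229). It was 0.066 without β-CB1R-/- replicate 2 and 0.23 without β-CB1R-/- replicate 1.

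The members varied between mice of 1 genotype to very different degrees. The SD within genotypes over all compared probes with a value in every mouse had a median of 0.39, with 0.14 and 0.99 as its 5th and 95th percentiles. Sod2 had an SD of 0.045, which only 0.1% of the compared probes undercut. Gclc (0.12), Gpx1 (0.15), Sod1 (0.18) and the dimmer Hmox1 probe (0.18) also lay in the lowest 11.7% of probes. Gpx4, Gpx3 and Cat (0.36 to 0.43) were near the median of all probes. Nqo1, the dimmer Cat probe and the brighter Hmox1 probe (0.51 to 0.61) were above it, and Sod3 (0.72) exceeded 86.2% of the compared probes. Between the repeat arrays of 1 mouse, no member probe differed by more than 0.17.

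**Figure D3:**
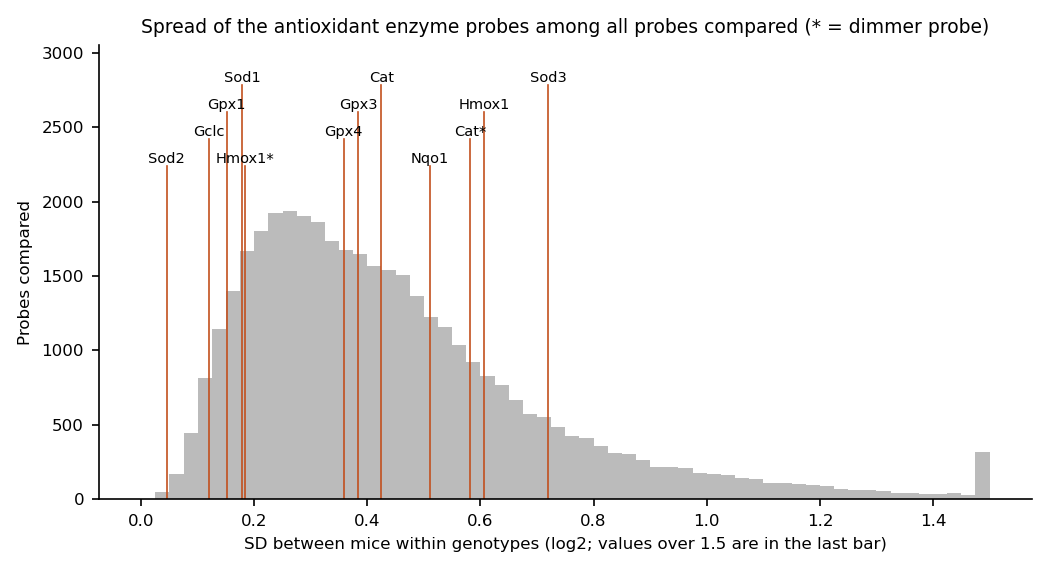
Histogram of the SD between mice within genotypes (log2) over the 39124 compared probes with a value in every mouse. Each antioxidant enzyme probe is marked by a line, and an asterisk marks the dimmer of 2 probes. Sod2 lies at the low end with 0.045 and Sod3 in the upper tail with 0.72.

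Some of this spread ran with the makeup of the islet samples; in bulk islets, more cells of a type and more RNA per cell cannot be told apart. Sod3 was high in the mouse in which markers of stellate cells and fibroblasts were high. The mean of the 8 markers was −0.44, −0.74, 0.11 and 2.43 in β-CB1R+/+ replicates 1 to 4 and 0.86, 1.22 and 0.78 in β-CB1R-/- replicates 1 to 3, and 7 of the 8 were above background on all arrays. The 5 annotated genes whose values, centred within genotypes, were most like Sod3 over the 7 mice were Timp2 (Pearson r = 0.995), Sting1 (0.994), Col1a2 (0.993), Fbn1 (0.993, not above background on all arrays) and Igfbp6 (0.99). Col1a2, a chain of type I collagen, measured 4.02 in β-CB1R+/+ replicate 4 and 0.77 to 2.83 in the other mice, so these coefficients rest largely on 1 mouse and are given as a description.

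The brighter Hmox1 probe and the dimmer Cat probe ran with the acinar markers in part. The acinar mean was 9.78, 8.56, 9.55 and 9.56 in β-CB1R+/+ mice and 9.97, 9.81 and 8.80 in β-CB1R-/- mice, and 12 of the 13 genes had a higher mean in β-CB1R-/- islets. Its lowest values came from β-CB1R+/+ replicate 2 and β-CB1R-/- replicate 3. Each was also the lowest mouse of its genotype on the brighter Hmox1 probe and on the dimmer Cat probe, and β-CB1R-/- replicate 3 was also the low one of its group on the brighter Cat probe. Among the controls that probe did not follow the acinar mean, since its lowest value came from β-CB1R+/+ replicate 1, where the acinar mean was highest. The 5 compared red cell markers had means of 3.00 to 5.02 in β-CB1R+/+ mice and 1.29 to 3.23 in β-CB1R-/- mice. All 5 had a lower mean in β-CB1R-/- islets. The 10 macrophage markers had means of −0.20 to 0.53 and 0.30 to 0.82, with 9 of 10 higher in β-CB1R-/- islets. The immediate-early gene Fos, which stress during isolation can raise, was high in β-CB1R+/+ replicates 3 and 4 and β-CB1R-/- replicate 2 (5.34 to 6.31) and low in the other mice (−1.59 to 0.76). Why it differed was not tested. The mean of the 9 compared genes of its list was 3.28 to 4.31 in those mice and −0.92 to 0.033 in the others. Within each genotype, the mice with high Fos also had the highest values of Gpx1 and of Gpx4. The part of cell makeup and of handling in the members' values was not tested.

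**Figure D4:**
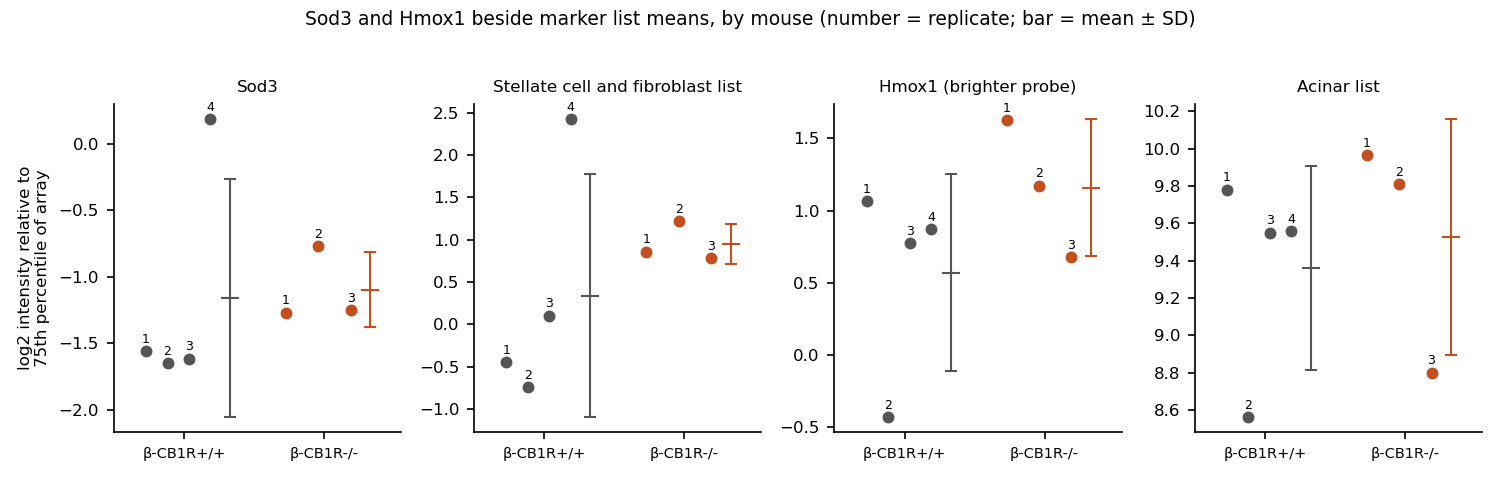
Log2 intensity of Sod3 and of the brighter Hmox1 probe beside the mean of the stellate cell and fibroblast markers and of the acinar markers, by mouse with replicate number; bars give the mean ± SD of each genotype (n = 4 and 3). β-CB1R+/+ replicate 4 is the highest mouse for Sod3 (0.19) and for the stellate cell and fibroblast list (2.43), and β-CB1R+/+ replicate 2 is the lowest for Hmox1 (−0.44) and for the acinar list (8.56).

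The wider antioxidant system was described with 9 lists holding 126 genes, of which 115 were compared. Counts for these lists take the brightest compared probe of each gene. On those probes no gene passed the adjusted threshold in limma or by the methods' t-test, and 3 had an unadjusted p under 0.05 in limma: Slc40a1, Txnrd2 and Gpx2. Over all 16955 annotated genes compared, 662 had one. Over all 152 compared probes of these genes, 1 passed the adjusted threshold in limma, a dimmer probe of Ephx1 that is described with the NRF2 targets, and none passed by the methods' t-test. An unadjusted p under 0.05 in limma was found for 7 of the 152, against 3.59% of all probes compared, the others being dimmer probes of Ftl1, Lrp8 and Trnau1ap. In all, 69 of the 115 had a higher mean in β-CB1R-/- islets and 46 a lower one, with a median log2 difference of 0.067. In 5 genes (Slc40a1, Txnrd2, Ftl1, Slc3a2 and Gstm5) every β-CB1R-/- mouse was above every control, and in 1 (Gpx2) every one was below. Among all annotated genes compared these counts were 443 and 375 of 16955. With arrays centred on their median, Slc40a1 and Txnrd2 still had separate groups and the other 4 genes did not, while 1.79% of all probes had every β-CB1R-/- mouse above every control. With a normexp background Gpx2 did not have separate groups either. Ftl1 did not have them with quantile normalization or Z scores, and Slc3a2 did not with Z scores.

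**Figure D5:**
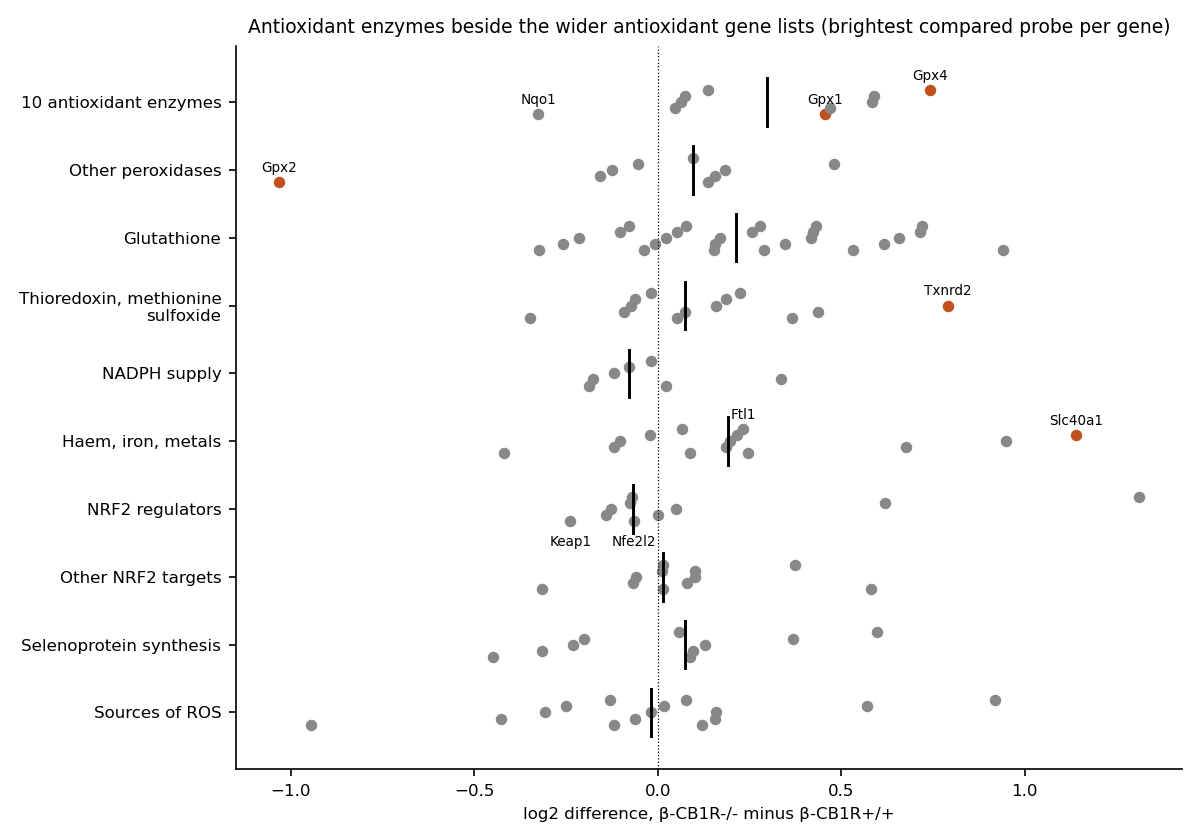
Log2 difference between β-CB1R-/- and β-CB1R+/+ islets for the 10 antioxidant enzymes and the 9 wider lists, 1 point per gene on its brightest compared probe; orange marks an unadjusted p under 0.05 and black bars the median of each list. The 10 enzymes had a median of 0.30, and the medians of the other lists ran from −0.077 for NADPH supply to 0.21 for glutathione.

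Among the other peroxidases, 5 of 9 compared genes had a higher mean, and the largest difference was that of Gpx2, the glutathione peroxidase of gut epithelium. Gpx2 measured 2.98, 2.62, 3.11 and 2.81 in β-CB1R+/+ islets and 1.90, 1.20 and 2.45 in β-CB1R-/- islets, so that every β-CB1R-/- mouse lay below every control, the opposite order to Gpx1 and Gpx4. Its log2 difference was −1.03 with a standard error of 0.31 (limma, unadjusted p = 0.010, adjusted p = 0.999), and −0.71 without β-CB1R-/- replicate 2. With a normexp background it was −0.71 too, and the groups overlapped (limma, unadjusted p = 0.0955, adjusted p = 1). The peroxiredoxins, most of which remove peroxides at the expense of thioredoxin, had log2 differences of 0.096 for Prdx1, −0.13 for Prdx2, 0.14 for Prdx3, 0.18 for Prdx5 and −0.16 for Prdx6 on their brightest probes, all with overlapping groups. With a normexp background or quantile normalization, every β-CB1R-/- mouse was above every control for Prdx5. Other probes of Prdx6 gave differences of either sign, and on 1 of its 4 probes every β-CB1R-/- mouse was above every control (0.18). Prdx4, the peroxiredoxin of the endoplasmic reticulum, ranged from 3.02 to 4.97 in β-CB1R+/+ mice and from 3.67 to 5.59 in β-CB1R-/- mice, with its lowest values in the mice with the lowest acinar mean (log2 difference 0.48, standard error 0.59). Gpx7 (0.16, above background on 5 of 8 arrays) and Gpx8 (−0.053) completed the compared genes, while Gpx5 and Gpx6 were not well above background in enough mice.

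In the thioredoxin list, 8 of 13 compared genes had a higher mean. Txnrd2, the thioredoxin reductase of mitochondria, measured 2.33, 2.39, 2.33 and 2.36 in β-CB1R+/+ islets and 2.89, 3.10 and 3.45 in β-CB1R-/- islets. All 3 β-CB1R-/- values lay well clear of the narrow range of the controls. The log2 difference was 0.79 with a standard error of 0.20 (limma, unadjusted p = 0.00386, adjusted p = 0.831; exact permutation p = 0.0286). It was between 0.64 and 0.92 with each mouse left out, and the unadjusted p was 0.0354 with arrays centred on their median. Its cytosolic counterpart Txnrd1 differed by −0.063 with a standard error of 0.24, and Srxn1, which repairs overoxidised peroxiredoxins, by −0.35 with a standard error of 0.30. On their brightest probes, the 10 genes of selenoprotein synthesis, 6 higher and 4 lower, had a median of 0.073. In this list a dimmer probe of Lrp8, a receptor that takes up selenoprotein P, differed by 0.84 (limma, unadjusted p = 0.0236, adjusted p = 0.999), with overlapping groups. It differed by 0.27 with a normexp background, and the brighter probe differed by 0.60. Trnau1ap, which binds the transfer RNA for selenocysteine, differed by 0.42 on a dimmer probe with separate groups (limma, unadjusted p = 0.0407, adjusted p = 0.999) and by 0.13 on its brightest probe with overlapping ones. Its remaining probe differed by 0.81, also with overlapping groups (exact permutation p = 0.2).

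The glutathione list had 19 of 26 compared genes with a higher mean, a median of 0.21 and no gene with an unadjusted p under 0.05. The largest differences, noticed once the values were known, were those of Mgst1 (0.94), Ggt1 (0.72), Gstm2 (0.71) and Gsto1 (0.66). Within each genotype these genes were lowest in the mouse with the lowest acinar mean. Chac1, next in size (0.62), did not have this order among β-CB1R-/- mice. The part of acinar cells was not tested. Gclm, the partner of Gclc, differed by 0.15 with a standard error of 0.18, close to the 0.14 of Gclc itself. Slc3a2, the heavy chain of the cystine importer, differed by 0.35 and Gstm5, a glutathione S-transferase, by 0.26, both without overlap between the groups. Slc7a11, the light chain of that importer, was well above background on only 1 of 8 arrays and was not compared.

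Among haem, iron and metal genes, 10 of 14 had a higher mean, with a median of 0.19. Slc40a1, the iron exporter ferroportin, measured 1.51, 0.98, 1.28 and 1.43 in β-CB1R+/+ islets and 1.99, 2.54 and 2.78 in β-CB1R-/- islets, a log2 difference of 1.14 with a standard error of 0.25 (limma, unadjusted p = 0.0019, adjusted p = 0.594; exact permutation p = 0.0286). Macrophages are rich in ferroportin. The macrophage marker mean was −0.20, −0.064, 0.076 and 0.53 in β-CB1R+/+ mice and 0.30, 0.65 and 0.82 in β-CB1R-/- mice. In β-CB1R-/- mice Slc40a1 had the same order as this mean, whereas in β-CB1R+/+ mice it was highest in replicate 1, where the mean was lowest. The part of macrophages in the Slc40a1 difference was not tested. Ftl1, the ferritin light chain, had separate groups on both of its probes, with log2 differences of 0.23 on the brighter (unadjusted p = 0.205) and 0.54 on the dimmer one (unadjusted p = 0.0187, limma), but RefSeq lists pseudogenes of Ftl1 too, and their part was not tested. On the brighter probe the groups overlapped with quantile normalization, with arrays centred on their median and with Z scores.

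The regulators of the NRF2 pathway had a median log2 difference of −0.067. Nfe2l2, which encodes NRF2, differed by −0.065 with a standard error of 0.22, its inhibitor Keap1 by −0.24 with a standard error of 0.22 and the repressor Bach1 by −0.076 with a standard error of 0.18, all with overlapping groups. Of the 10 regulators, 4 had a higher and 6 a lower mean. The largest difference among them, noticed once the values were known, was that of Sqstm1, an adaptor that binds KEAP1, at 1.31 on a probe above background on 7 of 8 arrays (limma, unadjusted p = 0.0955, adjusted p = 0.999). Sqstm1 measured 0.86, −1.53, 1.34 and 0.91 in β-CB1R+/+ islets and 1.03, 2.51 and 1.58 in β-CB1R-/- islets. The groups overlapped, and without the low β-CB1R+/+ replicate 2 the difference was 0.67. On their brightest probes, the 11 other NRF2 targets had 8 higher and 3 lower with a median of 0.015.

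Ephx1, the microsomal epoxide hydrolase and one of these targets, had probes that disagreed. The brighter probe measured 2.86, 3.22, 3.15 and 3.62 in β-CB1R+/+ islets and 3.17, 3.32 and 2.95 in β-CB1R-/- islets, with overlapping groups and a log2 difference of −0.066 (standard error 0.23; exact permutation p = 0.857). The dimmer probe measured −0.13, −0.43, −0.080 and −0.12 in β-CB1R+/+ islets and 1.35, 1.83 and 1.85 in β-CB1R-/- islets, and it was above background on all 8 arrays. Its groups were far apart. Its log2 difference was 1.86 with a standard error of 0.21, a 3.64-fold higher mean (limma, unadjusted p = 2.14e-05, adjusted p = 0.0297; exact permutation p = 0.0286). The adjusted p in limma was 0.11 with arrays centred on their median, 0.0658 without a filter on dim probes and 0.291 with the replicate number as a block, a fit that also leaves out β-CB1R+/+ replicate 4, which has no partner (0.107 without that mouse and without the block). The methods' t-test gave adjusted p = 0.297. Of the mice left out in turn only β-CB1R-/- replicate 1 left the adjusted p under 0.05 (adjusted p = 0.0417 to 0.272). Both probes carry the same transcript accession, and no direction for Ephx1 was drawn.

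The 7 compared genes of NADPH supply had 2 higher and 5 lower (median −0.077), and the 15 compared sources of reactive oxygen species had 7 higher and 8 lower (median −0.019).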

How the data were processed

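Islet RNA was measured on 1-colour Agilent arrays (Cy3). The intensity of every spot was deposited as written by Feature Extraction 11.5.1.1: the background was subtracted and arrays were not scaled to each other, and the file headers name mm9. The deposited Z score of each spot matched the standardised log10 intensity within 0.00503 and was used as an alternative. Each array was scaled by the 75th percentile of its 59305 non-control spots and put on the log2 scale. Spots flagged as non-uniform or as outliers among their replicates were left out, and spots of a probe and repeat arrays of a mouse were averaged. Saturation was not met on any array. Of 55681 probes, the 39160 that were well above background in 3 or more of the 7 mice were compared. Genotypes were compared with limma 3.58.1 (lmFit and eBayes, R 4.3.3); tests were two-sided and p-values were adjusted by Benjamini and Hochberg's method over all compared probes, with a threshold of 0.05. Single probes were also compared with exact two-sided permutation tests over the 35 ways of dividing the mice. The labels number the samples as replicates without saying that each came from a separate mouse, as is assumed here; p-values measure only the spread between these samples. RefSeq (GRCm38.p6) symbols named 28026 probes by accession, for 16955 compared genes; where a gene had several probes, the brightest compared one stood for it in counts over lists. The pipeline was tested on simulated data. The members and gene lists were chosen with earlier results of these data known. Every member was named with every probe; genes of the wider lists were named if any compared probe passed the threshold or had an unadjusted p under 0.05, or if they belonged to a stated set of regulators, subunits and peroxidases, and genes without overlap and the marker Col1a2 were named with their values known. Alternatives were a normexp background (offset 50, on median signals, since mean signals are not in the files used here), quantile normalization, centring on the median, the Z score, no filter or a stricter one on dim probes, each repeat array alone, flagged spots kept, an intensity trend in the variance, the replicate number as a block (without β-CB1R+/+ replicate 4, which has no partner), the methods' t-test, and leaving out each mouse; the count over any probe of a wider gene was added after the data were seen.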

Additional observations from a re-analysis of the deposited data

Results flagged for a closer look

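Of 25 β-CB1R+/+ groups of 4 values examined for a mouse far from the rest, those of 2 members held one, where chance alone would give about 1.25. Sod3 was highest in β-CB1R+/+ replicate 4, at 0.188 against −1.65 to −1.56 in the other 3 mice, on the log2 scale relative to the 75th percentile. The same mouse had the highest mean of the stellate cell and fibroblast markers (2.43). Sod2 was lowest in β-CB1R+/+ replicate 3, at 4.914 against 4.992 to 5.002 in the other 3, a gap within a very narrow group. Groups of 3 β-CB1R-/- mice were not examined.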

How the results depend on the processing

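No antioxidant enzyme probe, and no gene of the wider lists on its brightest probe, passed the adjusted threshold under any of the 19 alternatives, the methods' t-test included; the lowest adjusted p for any member, Slc40a1, Txnrd2 or Gpx2 was 0.225 (Slc40a1). Counting any compared probe of a gene, an alternative chosen after seeing the data, 1 wider gene passed, Ephx1, whose dimmer probe missed the threshold with arrays centred on their median (adjusted p = 0.11), no filter on dim probes (0.0658), the replicate block without β-CB1R+/+ replicate 4 (0.291), the t-test (0.297) and 6 of the 7 mice left out. The median log2 difference of the 10 enzymes, 0.30, was 0.49 with the replicate number as a block, which drops the unpartnered β-CB1R+/+ replicate 4 and has the same median as leaving that mouse out alone, 0.09 in deposited Z units, which are another scale, and 0.18 to 0.49 with each mouse left out, the highest without β-CB1R+/+ replicate 4. The 2 probes with an unadjusted p under 0.05 became 0 with arrays centred on their median, 1 with Z scores, 1 without a filter on dim probes, 1 with the replicate block, and 0 to 5 with each mouse left out (5 without β-CB1R-/- replicate 3). Without that mouse, 3756 of all 38598 probes compared had such a p in limma, against 1406 of 39160 in the main fit. The 2 enzymes without overlap became 0 with arrays centred on their median and 2 to 6 with each mouse left out (6 without β-CB1R-/- replicate 3, 4 without replicate 1). Leaving a mouse out can only keep or raise this count, since fewer values have to be separate. The share over all probes with a mouse left out was not counted, so the rise is not read as particular to the enzymes. Replicate numbers were not treated as pairs in the main fit. Correlations of deviations between mice of the same number were 0.42, −0.27 and −0.062. Of the 3 β-CB1R-/- mice, 1 correlated best with the control of its own number. So few mice cannot show whether the numbers pair them. Small differences turned sign: Sod2 to −0.001 and Sod3 to −0.004 with a normexp background, Sod1 to −0.004 with quantile normalization, and with 1 mouse left out Sod3 ranged from −0.10 to 0.51 and Sod1 from −0.026 to 0.22. The cause was not tested. The other members kept their sign throughout. Over all probes, the 43 calls became 24 without β-CB1R+/+ replicate 4 and 0 when the replicate block was added to that, and 0 with the adjusted t-test and without β-CB1R-/- replicate 2, 4 without β-CB1R-/- replicate 3, and 8 to 26 when 1 β-CB1R+/+ mouse was left out; without a dim filter there were 23 and with probes above background on all arrays 24.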
